A study of Caenorhabditis elegans with 32 samples.

Results

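The data described here compare RNA from fluorescence-sorted O2-sensing neurons with RNA from whole worms, in Caenorhabditis elegans hermaphrodites kept at 21% O2 and collected on day 7 of adulthood. The members are the 4 neuron libraries and the 4 whole-worm libraries of that age and O2 level, 8 of the 32 libraries of the series. Both groups came from strain KL123, which carries the npr-1(ad609) allele on X and the transgene iaIs25[Pgcy-37::GFP + unc-119(+)]. According to the study's methods the gcy-37 promoter labels the neurons URX, AQR and PQR strongly and the neurons AVM and ASI weakly or in some animals. Each neuron library was made from GFP-positive cells sorted from a suspension of many pooled worms, and each whole-worm library from a small portion of a sample's dissociated suspension that was set aside before the rest was sorted. A neuron library and a whole-worm library may therefore share a suspension, but the labels do not say which do. Whole worms in this sense are dissociated tissue, not intact animals. Animals of both groups ate bacteria producing mex-3 double-stranded RNA from the L3 larval stage, and OP50 bacteria from day 4 of adulthood onwards. The remaining libraries are from day 1 adults and from animals at 7% O2, and are used below only to set the day 7 difference at 21% O2 beside those of the other age and O2 level.

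URX, AQR and PQR sense ambient O2 with soluble guanylate cyclases, heme-binding enzymes that turn O2 binding into a cGMP signal. The cGMP opens cyclic nucleotide-gated channels, and the neurons stay active for as long as O2 is high. npr-1 encodes a neuropeptide Y-like receptor that damps this circuit, so its loss leaves a strong avoidance of high O2. AVM is a touch receptor neuron, and ASI is a ciliated neuron of the amphid sense organ that secretes the TGF-beta ligand DAF-7 and insulin-like peptides.

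Total counts were 8470929 to 10102026 in the neuron libraries and 6310558 to 7016010 in the whole-worm libraries. F31C3.14, a noncoding gene that overlaps ribosomal RNA, took 21.0 to 42.9% of the counts of neuron libraries and 39.9 to 50.9% of those of whole-worm libraries. Levels are given as CPM, counts scaled to a common library size with the TMM method of edgeR. Whole-worm libraries resembled each other more than neuron libraries did, with a correlation of log2 CPM across genes of 0.896 to 0.949 between whole-worm libraries and 0.803 to 0.827 among neuron replicates 1, 2 and 3. Neuron replicate 4 stood apart. Its correlation was 0.702 to 0.728 with the other neuron libraries and 0.67 to 0.69 with whole-worm libraries, against 0.489 to 0.598 between neuron replicates 1 to 3 and whole-worm libraries. The biological coefficient of variation was 0.903 among the neuron libraries and 0.395 among the whole-worm libraries.

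Of 9295 genes with enough counts to be tested, 3739 were called different between neurons and whole worms, 2181 higher in neurons (23.5%) and 1558 lower (16.8%). A call needed a Benjamini-Hochberg adjusted p under 0.1 from edgeR's quasi-likelihood test (two-sided) and a fold change of at least 1.5. Without neuron replicate 4, 2483 genes were higher and 2383 lower. All 4 neuron values lay above all 4 whole-worm values in 1868 genes (20.1%) and below them in 1762 genes (19%). The median log2 fold change of all tested genes was 0.09. A gene could be tested by being abundant in either group, and 1731 of the tested genes did not reach the count minimum in whole worms by themselves. Such genes could hardly be found lower in neurons. For many gene lists, though not for all, the members that also passed in whole worms alone are therefore given separately. Where they are not given, the count of higher members may rest partly on such genes. The filter also acts on the other side, since only 6328 of the 9295 tested genes reached the count minimum in neurons alone. A gene short of it in neurons had less room to be found higher. Counts of lower members may therefore rest partly on genes of that kind. Of all 7564 tested genes that passed in whole worms alone, 20.7% were called higher in neurons and 20.6% lower. Standard errors (SE) of log2 fold changes were taken from the fold change and the square root of its F statistic.

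**Figure D1:**
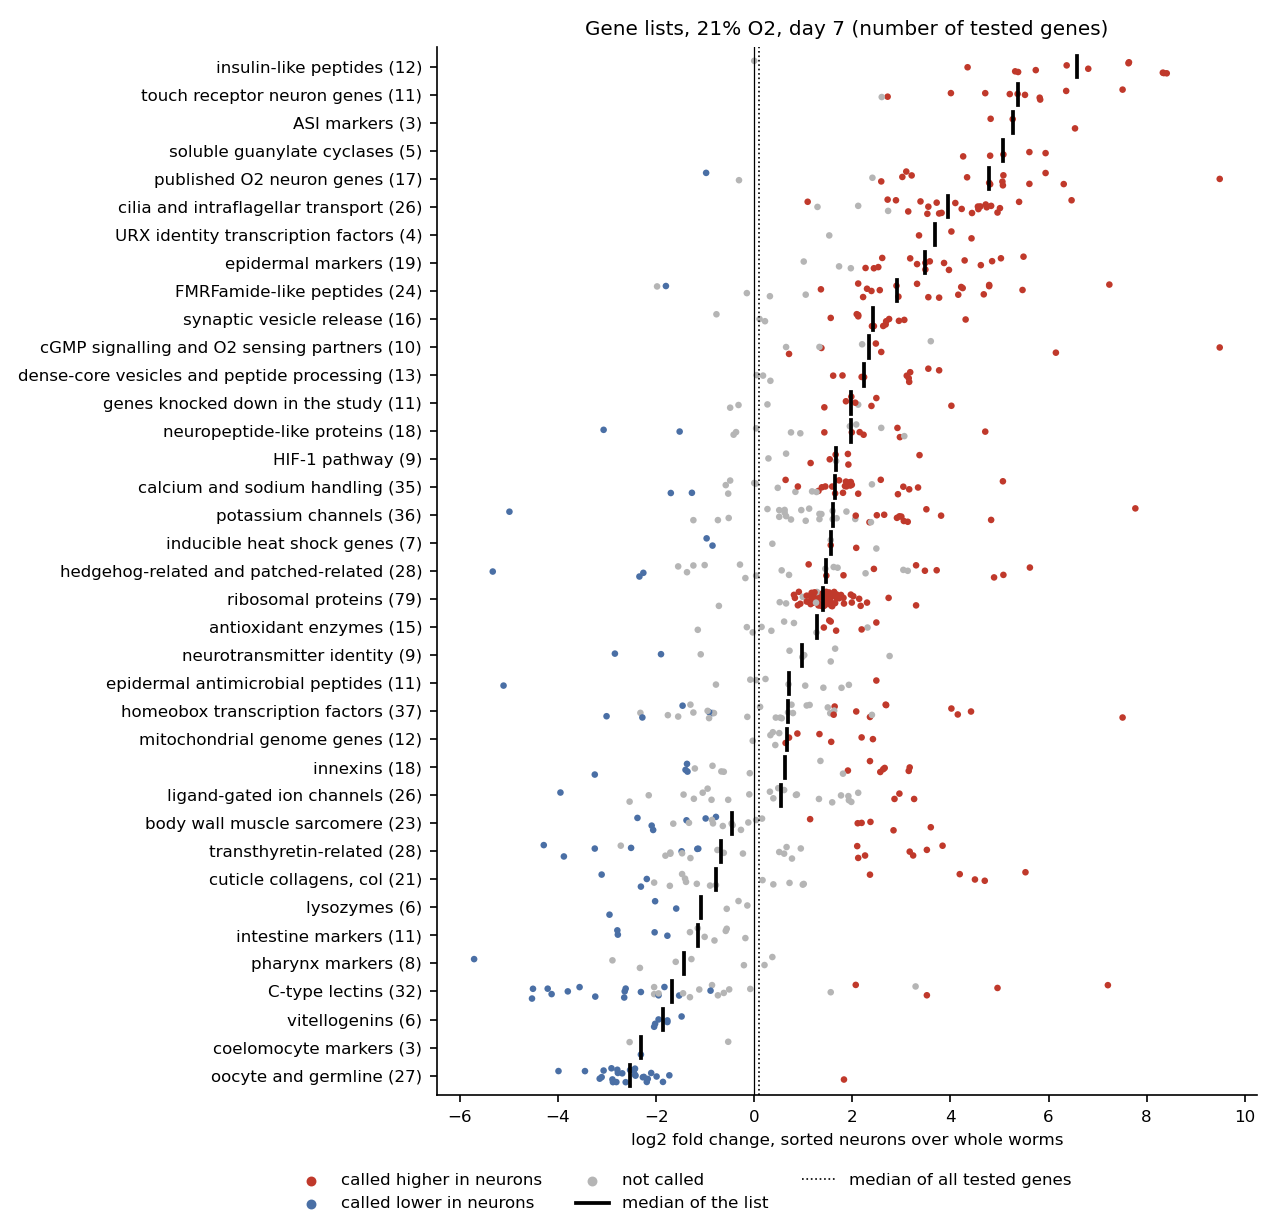
Log2 fold change of sorted neurons over whole worms (horizontal axis) for each tested gene of 37 gene lists with at least 3 tested genes (rows, number of tested genes in parentheses, ordered by median). Red points were called higher in neurons, blue points lower and gray points neither, black bars are list medians and the dotted line is the median of all tested genes at 0.09. Insulin-like peptides had the highest median at 6.59 and oocyte and germline genes the lowest at -2.53.

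The soluble guanylate cyclases were higher in neurons. Of the 7 genes of the family, gcy-31 to gcy-37, 5 could be tested and each was called higher, where 23.5% of all tested genes were. However, 4 of these 5 did not reach the count minimum in whole worms by themselves and could hardly have been found lower. The share over all genes is therefore not a like background for them. gcy-37 is the gene whose promoter was used to label the sorted cells. It lies on chromosome IV from 2150647 to 2159169 (WBcel235) and encodes a cyclase subunit of these neurons. It had 562, 412, 495 and 214 CPM in the 4 neuron libraries, against 7.39, 17.1, 6.28 and 3.5 CPM in the 4 whole-worm libraries. The lowest neuron library, replicate 4, was thus still above the highest whole-worm library, and the fitted log2 fold change was 5.61 (SE 0.53, edgeR adjusted p = 3.00e-05), a 48.9-fold difference. In bulk samples of this kind, more labelled cells among those collected and more RNA of the gene per cell cannot be told apart.

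gcy-36, on chromosome X from 15479017 to 15485711, encodes a subunit that senses rises in O2 together with GCY-35. It had 29.6, 70.5, 62.3 and 55.3 CPM in neurons, against 3.78, 1.64, 1.73 and 0.647 CPM in whole worms, with a log2 fold change of 4.81 (SE 0.61, edgeR adjusted p = 2.24e-04). gcy-35 had 46.3, 22.8, 43.2 and 7.55 CPM in neurons, against 1.2, 0.38, 1.57 and 0.388 CPM in whole worms. Its log2 fold change was 5.08 (SE 0.82, edgeR adjusted p = 0.00105). gcy-32 lies on chromosome V from 13912080 to 13915490 and had 102, 71.4, 65.8 and 32.2 CPM in neurons, against 0.516, 0.633, 3.14 and 0.129 CPM in whole worms. Its log2 fold change of 5.94 (SE 0.84, edgeR adjusted p = 4.51e-04) was the highest of the family, and no order among the 5 was tested. gcy-33, a gene needed in other neurons to sense falls in O2, varied most, with 67.8, 10.5, 22.1 and 3.44 CPM in neurons, against 0.344, 0.127, 1.73 and 3.11 CPM in whole worms. The values of its groups were separated by a narrow gap, and its log2 fold change was 4.26 (SE 1.14, edgeR adjusted p = 0.0158). gcy-34 was not tested because only neuron replicates 3 and 4 had more than a few counts, with 9, 9, 98 and 157 counts in neurons and 0, 0, 0 and 3 counts in whole worms. gcy-31 had 3, 19, 11 and 0 counts in neurons and 0, 3, 0 and 0 counts in whole worms. Summed over the 7 genes, the neuron libraries had 809, 591, 697 and 330 CPM, against 13.2, 20.2, 14.4 and 8.16 CPM in whole worms, a ratio of means of 43.3. Only gcy-37 passed the count minimum in whole worms alone. Small parts of the exons of gcy-33 and gcy-35 overlap other genes, which counting without strand does not resolve.

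**Figure D2:**
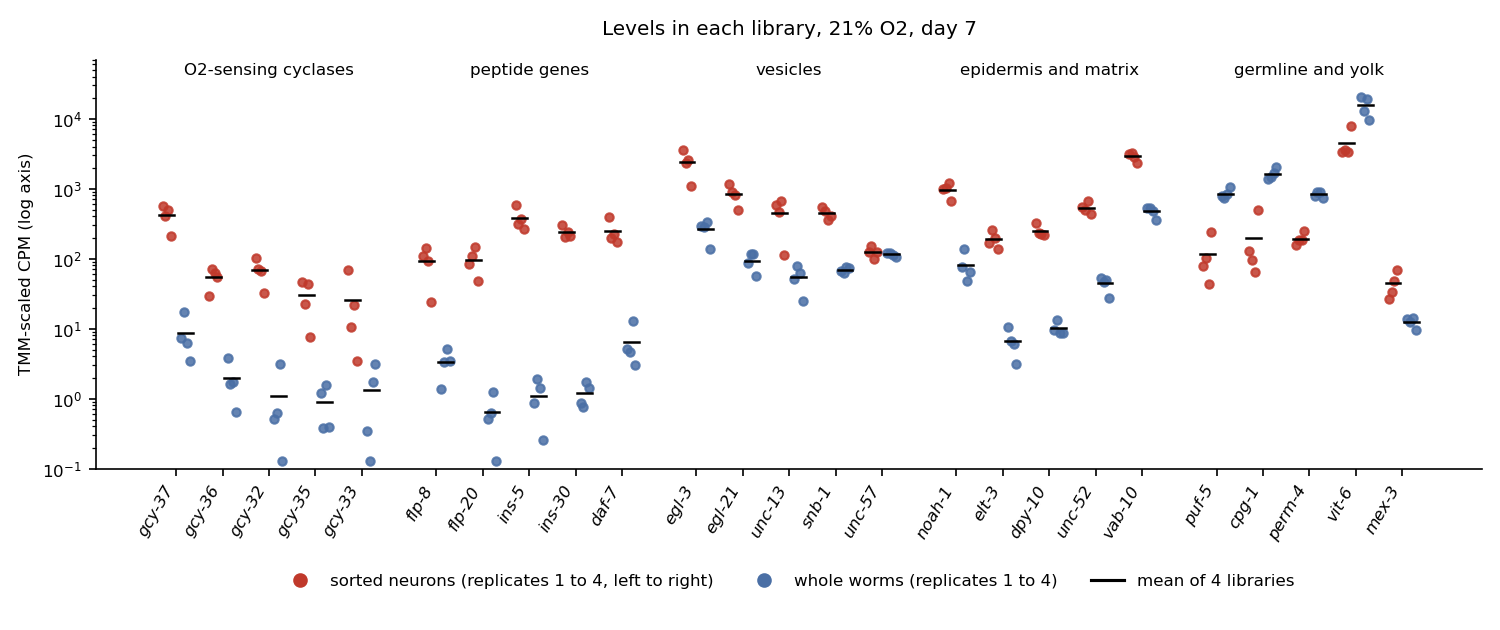
Level of 25 genes in each library (TMM-scaled CPM, log axis), with neurons in red and whole worms in blue, replicates 1 to 4 from left to right and the mean of 4 libraries as a black line. The cyclase gcy-37 averaged 421 CPM in neurons and 8.56 CPM in whole worms, noah-1 averaged 972 and 81.5 CPM, and vit-6 averaged 4563 and 15572 CPM.

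Genes that act with these cyclases were called higher in 6 of 10 tested members (13 listed) and lower in none, beside 23.5% and 16.8% of all tested genes. Without neuron replicate 4, 8 of the 10 were higher. Among the 5 that passed in whole worms alone, 3 were higher in the main fit. tax-2, the beta subunit of the cyclic nucleotide-gated channel of these neurons, had 21.8, 22.1, 23.1 and 2.22 CPM in neurons, against 0.172, 0, 0.785 and 0 CPM in whole worms. Neuron replicate 4 was the low one, and the log2 fold change was 6.15 (SE 1.29, edgeR adjusted p = 0.00467). Its partner tax-4, the alpha subunit, had 38.4, 5.29, 13.7 and 0.222 CPM in neurons, against 0, 2.91, 1.73 and 0 CPM in whole worms. The groups overlapped through neuron replicate 4 and tax-4 was not called (log2 fold change 3.60, SE 1.56, edgeR adjusted p = 0.101). Without that library its log2 fold change was 3.96 (edgeR adjusted p = 0.0279, within a range over all alternatives of 0.0279 to 0.282). gcy-25, a receptor guanylate cyclase gene, had 8.23, 24.6, 7.47 and 4.44 CPM in neurons and no count in any whole-worm library. Against a floor of 3 counts per library it was at least 25.5-fold higher in neurons. The phosphodiesterase gene pde-2, whose product breaks down cGMP, was abundant in both, with 838, 626, 758 and 320 CPM in neurons and 231, 262, 260 and 234 CPM in whole worms. Its groups did not overlap and it was higher by 1.37 on the log2 scale (SE 0.26, edgeR adjusted p = 0.00295). cng-1, another channel subunit gene, was higher by 2.59 (SE 0.78, edgeR adjusted p = 0.0279). The cGMP-dependent kinase gene egl-4 was higher by 0.71 and the phosphodiesterase gene pde-1 by 2.48, with edgeR adjusted p of 0.0503 and 0.0874. Both calls were lost with 1 library left out, egl-4 in 4 and pde-1 in 5 of the 8 such fits. The mutated receptor gene npr-1 itself had 155, 7, 129 and 21 counts in neurons and 0, 0, 5 and 6 counts in whole worms and was not tested. glb-5, a globin gene known to tune O2 responses, had at most 4 counts in any of the 8 libraries.

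Transcription factors that set the identity of URX-type neurons were present. ahr-1, the aryl hydrocarbon receptor gene needed for URX, AQR and PQR to acquire their fate, had 54.4, 55.8, 29.5 and 36.6 CPM in neurons, against 0.688, 5.69, 1.1 and 0.518 CPM in whole worms. All neuron values were far above the whole-worm values, with a log2 fold change of 4.43 (SE 0.80, edgeR adjusted p = 0.00203). The SOX factor gene egl-13 had 187, 107, 119 and 25.4 CPM in neurons, against 8.08, 13, 11.3 and 10.2 CPM in whole worms, and was higher by 3.36 (SE 0.53, edgeR adjusted p = 9.45e-04). unc-86, a POU homeobox gene of many sensory neurons including touch neurons, was higher by 4.02 (SE 1.00, edgeR adjusted p = 0.0113). aha-1, the more widely expressed partner of AHR-1, had 55.8, 26.7, 42.9 and 7.44 CPM in neurons and 15.1, 15.3, 12.1 and 3.37 CPM in whole worms. It was not called (log2 fold change 1.53, edgeR adjusted p = 0.104), though 7 of the alternatives, among them leaving out neuron replicate 4 (edgeR adjusted p = 0.0194) and a replicate block (0.0575), called it.

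Of 24 genes that the study lists as published markers of O2-sensing neurons, 17 could be tested. Of these, 14 were called higher and hex-4 lower, beside 23.5% and 16.8% of all tested genes. The median log2 fold change of the list was 4.79. The FMRFamide-like peptide gene flp-8 had 110, 142, 94 and 23.9 CPM in neurons, against 1.38, 3.29, 5.18 and 3.5 CPM in whole worms (log2 fold change 4.79, SE 0.62, edgeR adjusted p = 2.60e-04). T01D3.1 was higher by 3.21 (SE 0.42) and the exchanger gene ncx-5, of the family that moves Ca2+ out in exchange for Na+, by 5.07 (SE 0.99). hex-4, a hexosaminidase gene, had 29.6, 19.8, 18.6 and 23.5 CPM in neurons, against 28.9, 30.6, 47.6 and 73 CPM in whole worms. Its groups overlapped, its log2 fold change was -0.98 (edgeR adjusted p = 0.0918), and the call was lost in 4 of the 8 fits that left out a library and with a replicate block (edgeR adjusted p = 0.153). Only 4 of the 17 passed in whole worms alone, of which 3 were higher.

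Genes of the synaptic release machinery were higher in neurons, 13 of 16 beside 23.5% of all tested genes, with a median log2 fold change of 2.42. Nearly all of them, 15, were abundant enough in whole worms alone, and 12 of those were called higher. snb-1, the synaptobrevin gene of the vesicle membrane, had 555, 476, 360 and 400 CPM in neurons, against 67.2, 62.1, 75.2 and 73.4 CPM in whole worms. The 4 neuron libraries were close together here, replicate 4 included, and the log2 fold change was 2.69 (SE 0.20, edgeR adjusted p = 7.77e-06). ric-4, the SNAP25 gene, had 380, 180, 197 and 150 CPM in neurons, against 9.28, 11.4, 20.4 and 4.66 CPM in whole worms, and showed the largest change of the list at 4.31 (SE 0.49). The priming factor gene unc-13 was lower in neuron replicate 4 than in its companions, with 585, 458, 656 and 112 CPM in neurons, against 51, 77.6, 63.2 and 25 CPM in whole worms (log2 fold change 3.06, SE 0.52, edgeR adjusted p = 0.00134). The others called higher were unc-64 (syntaxin, 2.75), unc-10 (RIM, 2.63), snt-1 (synaptotagmin, 2.68), rab-3 (2.95), unc-18 (2.40), cpx-1 (complexin, 2.44), aex-3 (2.12), syd-2 (liprin-alpha, 2.12), unc-104 (a kinesin that carries vesicle precursors, 2.09) and tom-1 (tomosyn, 1.56). The members not called were the endocytosis genes unc-11, unc-57 and unc-26. unc-57, the endophilin gene, had a mean of 125 ± 20.8 CPM in neurons and 115 ± 7.43 CPM in whole worms (SD, n = 4 each). Its log2 fold change was 0.11 (SE 0.22), and unc-11 (AP180) was at 0.22 (SE 0.22) and unc-26 (synaptojanin) at -0.77 (SE 0.54).

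Of 13 genes that make peptide-filled dense-core vesicles and process their peptides, 10 were higher in neurons, beside 23.5% of all tested genes. All 13 passed in whole worms alone. egl-3, the proprotein convertase that cuts neuropeptide precursors, lies on chromosome V from 10169177 to 10173753 and had 3537, 2305, 2588 and 1108 CPM in neurons, against 295, 287, 333 and 136 CPM in whole worms. Its log2 fold change was 3.18 (SE 0.37, edgeR adjusted p = 1.33e-04). Scaled per kilobase of exon, its mean level ranked 31 of 20147 nuclear protein-coding genes in neurons and 330 in whole worms. The carboxypeptidase gene egl-21, which trims the cut peptides, had 1156, 891, 815 and 489 CPM in neurons, against 86.1, 117, 115 and 56.5 CPM in whole worms (log2 fold change 3.16, SE 0.31). The peptide-amidating genes pgal-1 and pghm-1 were higher by 3.77 (SE 0.44) and 3.15 (SE 0.51). sbt-1, the 7B2 chaperone of EGL-3, was higher by 3.55 (SE 0.35), and ida-1, a dense-core vesicle membrane protein gene, by 3.11 (SE 0.46). unc-31 (CAPS), needed for dense-core vesicle release, was higher by 1.61 (SE 0.50, edgeR adjusted p = 0.0315), a call lost without whole-worm replicate 1 (edgeR adjusted p = 0.103, range over all alternatives 0.00454 to 0.103). pamn-1, hid-1 and ric-7 were not called, with log2 fold changes of 0.18, 0.33 and 0.05. Leaving out 1 library gave 7 to 10 called members.

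Among peptide genes, 19 of the 24 tested FMRFamide-like genes (31 listed) were higher in neurons and flp-18 was lower. The shares over all tested genes were 23.5% higher and 16.8% lower. Of the 11 that passed in whole worms alone, 7 were higher. flp-20, known from touch neurons, had 84.7, 108, 145 and 48.6 CPM in neurons, against 0.516, 0.633, 1.26 and 0.129 CPM in whole worms, the largest change of the family at 7.24 (SE 0.65, edgeR adjusted p = 2.11e-05). flp-5 was higher by 5.47 (SE 0.57), flp-7 by 4.68 (SE 0.50) and flp-14 by 4.22 (SE 0.55) with means of 196 CPM in neurons and 10.5 CPM in whole worms. flp-19, a gene expressed in URX, had 40.9, 22.1, 22.7 and 16.9 CPM in neurons, against 3.44, 6.71, 4.39 and 2.72 CPM in whole worms (log2 fold change 2.56, SE 0.56). flp-18 had 10.7, 5.04, 7.05 and 5.55 CPM in neurons, against 27, 36.2, 26.4 and 9.19 CPM in whole worms. Whole-worm replicate 4 overlapped the neurons, and the call of flp-18 (log2 fold change -1.80, edgeR adjusted p = 0.0324) was lost without whole-worm replicate 2 (edgeR adjusted p = 0.111) and when all 16 day 7 libraries were fitted together (0.103), within a range over all alternatives of 0.00176 to 0.111.

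Neuropeptide-like protein genes outside the epidermal antimicrobial group were divided, with 7 higher and 2 lower of 18 tested and 34 listed. The shares over all tested genes were 23.5% and 16.8%. Without neuron replicate 4, 11 were higher and 2 lower. Among the 11 that passed in whole worms alone, 5 were higher and 2 lower in the main fit. nlp-1 had 32.9, 17.4, 36.7 and 19.9 CPM in neurons, against 0.688, 1.39, 1.41 and 0.518 CPM in whole worms (log2 fold change 4.71, SE 0.65). nlp-8, nlp-14 and nlp-15 were higher by 2.97, 2.23 and 2.15 (SE 0.42, 0.42 and 0.46). nlp-18 and nlp-40 were lower by 3.07 and 1.52 on the log2 scale, and both are known from the intestine. Their edgeR adjusted p of 0.0591 and 0.077 were above 0.1 in 4 and 6 of the 8 fits that left out a library, and with a replicate block that of nlp-40 was 0.111.

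Insulin-like peptide genes showed the highest list median, 6.59 on the log2 scale. Of 40 genes, 12 passed the count minimum and 11 were higher in neurons. None of the 12 passed in whole worms alone, so a tested member had to be abundant in neurons. Summed over the 40 genes, the neuron libraries had 1935, 1092, 1385 and 985 CPM, against 10.1, 19.7, 17.7 and 9.97 CPM in whole worms, a ratio of means of 93.7. ins-30, on chromosome I from 14034954 to 14036057, had 306, 206, 242 and 210 CPM in neurons, against 0.859, 0.759, 1.73 and 1.42 CPM in whole worms. Its log2 fold change of 7.64 (SE 0.37, edgeR adjusted p = 1.50e-06) had the smallest p among all genes called higher. ins-24, also on chromosome I from 14031147 to 14031667, had 375, 187, 198 and 140 CPM in neurons, against 1.72, 1.39, 0.628 and 0.777 CPM in whole worms (7.63, SE 0.49). On chromosome II, ins-5 (5997557 to 5999023) had 591, 310, 364 and 269 CPM in neurons, against 0.859, 1.9, 1.41 and 0.259 CPM in whole worms (8.41, SE 0.54). Its neighbour ins-6 (6000436 to 6001009), which acts in ASI and ASJ to control dauer exit, had 174, 88.4, 114 and 69.4 CPM in neurons, against 0, 0.253, 0.942 and 0.129 CPM in whole worms (8.35, SE 0.75). daf-28, an insulin that promotes growth over dauer arrest, had 246, 138, 230 and 144 CPM in neurons, against 0.688, 2.28, 2.67 and 1.04 CPM in whole worms (6.81, SE 0.49). Neuron replicate 4 was not far from the others for these peptides. ins-17 was the exception among the tested members, at 3.35, 5.17, 3.45 and 0.222 CPM in neurons and 2.92, 4.3, 4.08 and 0.906 CPM in whole worms (-0.00, SE 0.97).

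Markers of ASI and of touch neurons, the class to which AVM belongs, were also higher in the sorted sample. Of the ASI markers, daf-7, the TGF-beta gene, had 388, 197, 222 and 175 CPM in neurons, against 5.16, 4.68, 12.7 and 2.98 CPM in whole worms (log2 fold change 5.27, SE 0.50, edgeR adjusted p = 3.29e-05). The transcription factor gene unc-3 was higher by 6.54 (SE 0.79) and the G protein gene gpa-4 by 4.82 (SE 0.65). The ASI chemoreceptor gene str-3 had 8, 10, 45 and 0 counts in neurons and none in whole worms. Beside 23.5% of all tested genes, 10 of 11 tested touch receptor genes (12 listed) were higher, as was each of the 5 that passed in whole worms alone. Their summed level was 1482, 2047, 2058 and 722 CPM in neurons, against 49.2, 43.9, 68.3 and 23.7 CPM in whole worms. mec-3, the LIM homeobox gene that specifies touch neurons, had 56.9, 48.5, 63.4 and 28.8 CPM in neurons, against 0.516, 0.38, 0.157 and 0 CPM in whole worms (7.51, SE 0.78). mec-9, which encodes an extracellular component of the touch apparatus, had 220, 352, 228 and 158 CPM in neurons, against 5.67, 4.3, 4.39 and 2.59 CPM in whole worms (5.82, SE 0.38). The channel subunit genes mec-4 and mec-10 were higher by 5.52 (SE 0.85) and 5.37 (SE 0.62), the beta-tubulin gene mec-7 by 5.21 (SE 0.78), and the alpha-tubulin gene mec-12 and its acetyltransferase gene mec-17 by 4.01 (SE 0.47) and 4.71 (SE 0.55). mec-14 was not called and rested on neuron replicate 3, with 2.51, 1.51, 23.1 and 3 CPM in neurons and 0.172, 4.43, 0 and 0.259 CPM in whole worms. Whether the RNA in these libraries comes mainly from O2-sensing, touch or ASI neurons was not tested.

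Cilia genes followed the same direction, at a median of 3.96. Beside 23.5% and 16.8% of all tested genes, 23 of 26 tested cilia genes (30 listed) were higher and none lower. Only 5 of them passed in whole worms alone, and those 5 were called higher. che-3, the heavy chain of the dynein that returns cargo from the ciliary tip, had 413, 323, 276 and 111 CPM in neurons, against 9.28, 11.6, 7.53 and 7.64 CPM in whole worms (log2 fold change 4.96, SE 0.42). The intraflagellar transport genes osm-5, ifta-1 and ift-74 were higher by 4.74 (SE 0.61), 3.72 (SE 0.50) and 5.40 (SE 0.77).

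Ion channel genes were mixed. Of 36 tested potassium channel genes (68 listed), 13 were higher and kqt-2 was lower, beside 23.5% and 16.8% of all tested genes. Among the 19 that passed in whole worms alone, 8 were higher and 1 lower. The Shaker-type channel gene shk-1 had 151, 85.1, 80.2 and 70.3 CPM in neurons, against 7.39, 16.4, 16.9 and 5.7 CPM in whole worms (log2 fold change 3.05, SE 0.46). The potassium leak channel genes twk-10 and twk-2 were higher by 7.77 (SE 1.07) and 3.13 (SE 0.65), and the voltage-gated channel gene kvs-4 by 4.83 (SE 0.79). kqt-2 was counted in neuron replicate 4 alone among the neurons, at 0, 0, 0 and 0.222 CPM, against 1.72, 2.4, 2.82 and 2.07 CPM in whole worms. Without whole-worm replicate 4, or without any of the 4 neuron libraries in turn, 2 to 5 potassium channel genes were lower. Among genes of Ca2+ and Na+ handling, 23 of 35 were higher and 2 lower, beside 23.5% and 16.8% of all tested genes. Of the 31 that passed in whole worms alone, 21 were higher. cmd-1, the calmodulin gene, had 1401, 1239, 1323 and 783 CPM in neurons, against 328, 345, 374 and 251 CPM in whole worms (1.87, SE 0.21, edgeR adjusted p = 1.12e-04). The plasma membrane calcium pump gene mca-2 was higher by 3.34 (SE 0.32), the ryanodine receptor gene unc-68 by 1.85 (SE 0.22) and crh-1, the CREB factor gene, by 2.12 (SE 0.27). Of 26 tested ligand-gated channel genes (100 listed), 3 were higher and 1 lower, both below the background shares of 23.5% and 16.8%, and with a replicate block 3 were lower. The gap junction genes went both ways, with 7 higher and 4 lower of 18, beside 23.5% and 16.8% of all tested genes. Among the 12 that passed in whole worms alone, 4 were higher and 4 lower. inx-12 and inx-13, known from the excretory and epidermal cells, had means of 91.9 and 125 CPM in neurons and 14.9 and 21 CPM in whole worms (2.63 and 2.57, SE 0.38 and 0.37). unc-7, a neuronal innexin, was higher by 2.66 (SE 0.68). inx-14, a germline innexin, had 0.418, 4.41, 9.52 and 4.44 CPM in neurons, against 42.1, 42.6, 52.4 and 43.9 CPM in whole worms (-3.25, SE 0.71). Without neuron replicate 4, 8 innexin genes were lower in neurons, and without whole-worm replicate 3, 2 were.

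Neurotransmitter identity genes had no member called higher in neurons and 2 called lower, beside 23.5% and 16.8% of all tested genes. Without neuron replicate 1, 3 or 4, 1 member was called higher. Only 3 of the tested members reached the count minimum in neurons alone. Of 9 tested genes, the tyramine and octopamine synthesis genes tdc-1 and tbh-1, which are also expressed in the gonad sheath, were lower, tdc-1 by 2.84 on the log2 scale (SE 0.94) and tbh-1 with means of 49.3 CPM in neurons and 184 CPM in whole worms. tdc-1 had 23.2, 1.76, 2.79 and 77.9 CPM in neurons, against 187, 154, 179 and 238 CPM in whole worms. Neuron replicate 4 was the highest of the neurons for tdc-1. eat-4, the vesicular glutamate transporter gene and marker of glutamatergic neurons, had 19.1, 8.45, 9.19 and 0 CPM in neurons, against 1.72, 1.14, 0.942 and 1.55 CPM in whole worms (2.76, SE 1.24, edgeR adjusted p = 0.112). Without neuron replicate 4 it was called, at 3.13 (edgeR adjusted p = 0.00503, range over all alternatives 0.00503 to 0.347).

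Genes of the HIF-1 hypoxia pathway were higher in neurons in 6 of 9 tested members (11 listed), beside 23.5% of all tested genes. All 9 passed in whole worms alone, and of all such genes 20.7% were higher. hif-1, the hypoxia-inducible factor gene, lies on chromosome V from 20780407 to 20785260 and had a mean of 606 ± 149 CPM in neurons, against 162 ± 31.6 CPM in whole worms (SD, n = 4 each) (log2 fold change 1.91, SE 0.23, edgeR adjusted p = 1.65e-04). cysl-1, which links hydrogen sulfide to HIF-1 through EGL-9, was higher by 3.37 (SE 0.51), the HIF-1 target gene cysl-2 by 1.92 (SE 0.48) and the ferritin gene ftn-2 by 1.66 (SE 0.32). egl-9, the O2-dependent hydroxylase that marks HIF-1 for destruction, and the HIF-1 target nhr-57 were higher by 1.15 (SE 0.41) and 1.54 (SE 0.55). Their calls, with edgeR adjusted p of 0.0525 and 0.0547, were lost in 5 and 4 of the 8 fits that left out a library. Without neuron replicate 4, 2 members of the list were called lower.

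Of 15 tested antioxidant genes (21 listed), 6 were higher and none lower, beside 23.5% and 16.8% of all tested genes. Without neuron replicate 4, 8 were higher and 1 lower. Among the 12 that passed in whole worms alone, 5 were higher in the main fit. skn-1, the Nrf-type regulator of oxidative stress genes, had 1927, 1265, 1379 and 1243 CPM in neurons, against 237, 255, 266 and 274 CPM in whole worms (log2 fold change 2.49, SE 0.18, edgeR adjusted p = 5.54e-06). The glutathione reductase gene gsr-1, the peroxiredoxin gene prdx-2 and the superoxide dismutase gene sod-1 were higher by 1.42 (SE 0.17), 1.53 (SE 0.18) and 1.67 (SE 0.24). Cytosolic ribosomal protein genes were higher in neurons in 71 of 79 tested genes with a median of 1.41, beside 23.5% of all tested genes. In 76 of the 79 all 4 neuron libraries were above all 4 whole-worm libraries, beside 20.1% of all tested genes. Their summed level was 25435, 27489, 26426 and 29214 CPM in neurons, against 9351, 11241, 8641 and 12033 CPM in whole worms, and 70 of the 78 that passed in whole worms alone were called higher. rpl-3 had 3339, 3716, 3000 and 4253 CPM in neurons, against 1301, 1166, 1042 and 1239 CPM in whole worms (1.59, SE 0.15). rpl-11.2, rpl-7 and rps-16 were higher by 3.30, 1.83 and 2.14 (SE 0.22, 0.16 and 0.21), while the copy rpl-11.1 was not called (-0.72).

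Beside 23.5% of all tested genes, 7 of the 12 genes of the mitochondrial genome were higher, atp-6 with the largest change (2.42, SE 0.42). This count depended on neuron replicate 4, whose summed level was 39694 CPM beside 20302, 20269 and 26411 CPM in the other neuron libraries and 14252 to 21951 CPM in whole worms. Without that library 2 of the 12 were called, and with 1 whole-worm library left out 2 to 4 were. Heat shock genes were divided. hsp-4, the BiP chaperone of the endoplasmic reticulum, and the regulator hsf-1 were lower, by 0.85 (SE 0.22) and 0.97 (SE 0.30). hsp-70 was higher by 1.56 (edgeR adjusted p = 0.0851), a call lost in 7 of the 8 fits that left out a library.

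Genes of tissues other than neurons did not behave alike. Epidermal markers were higher in the sorted neurons, in 16 of 19 tested genes (32 listed) beside 23.5% of all tested genes. The list median was a log2 fold change of 3.49, and each of the 14 markers that passed in whole worms alone was called higher. Without whole-worm replicate 4, or without any of the 4 neuron libraries in turn, 1 marker was lower. Their summed level was 8098, 7921, 7519 and 5370 CPM in neurons, against 882, 1089, 685 and 688 CPM in whole worms. noah-1, a protein of the apical matrix that forms before the cuticle, lies on chromosome I from 5874416 to 5878958 and had 973, 1031, 1215 and 669 CPM in neurons, against 75.6, 138, 47.9 and 64.5 CPM in whole worms (3.58, SE 0.34, edgeR adjusted p = 3.07e-05). Its relative noah-2 was higher by 4.29 (SE 0.37). elt-3, the GATA factor of epidermal cells, had 168, 254, 199 and 137 CPM in neurons, against 10.5, 6.71, 6.12 and 3.11 CPM in whole worms (4.85, SE 0.41). The furrow collagen genes dpy-10 and dpy-7 were higher by 4.62 (SE 0.28) and 5.49 (SE 1.07), the collagen gene sqt-3 by 3.97 (SE 0.32), and vab-10, a spectraplakin of epidermal attachments that neurons also use, by 2.61 (SE 0.18). Of the dpy-10 exons 49% overlap another gene, so its counts are uncertain. The adult collagen marker col-19 was near the lower limit of the counts in both groups, with 2.37, 1.64, 0.738 and 8.77 CPM in neurons and 1.55, 0.759, 3.61 and 0.777 CPM in whole worms, and was not called. The epidermal antimicrobial peptide genes, a separate list of 21 genes known from the epidermis, had 1 of 11 tested members higher (cnc-3) and 1 lower (cnc-6), with a median log2 fold change of 0.70. Their summed level was 73.1, 64.3, 75.6 and 75.6 CPM in neurons, against 62.7, 90.6, 84.9 and 23.3 CPM in whole worms, so the groups overlapped. cnc-3 was at 2.49 (SE 0.80) and cnc-6 at -5.11 (SE 1.05), and no member of the list was higher without whole-worm replicate 1, 3 or 4, while 2 were without whole-worm replicate 2. The part that RNA of epidermal cells has in these values was not tested. elt-3, noah-1, noah-2, dpy-7 and col-19 were chosen for description after their values were seen.

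Of 157 genes of the larger col collagen family, 21 could be tested, 5 were higher and 3 lower, close to the shares of 23.5% and 16.8% over all tested genes. col-76 had 134, 121, 29.9 and 62.5 CPM in neurons, against 2.58, 6.07, 2.35 and 2.2 CPM in whole worms (log2 fold change 4.70, SE 0.60), and col-121 was called higher as well. col-101 and col-181 were lower by 3.11 (SE 0.71) and 2.31 (SE 0.55). Among hedgehog-related and patched-related genes, 10 of 28 were higher and 3 lower, beside 23.5% and 16.8% of all tested genes. ptr-4, a patched-related gene needed for molting, had 213, 234, 209 and 120 CPM in neurons, against 6.36, 4.55, 3.45 and 1.42 CPM in whole worms (5.62, SE 0.47). ptr-2, known from germline cytokinesis and the epidermis, was lower by 2.26 (SE 0.45). Most called C-type lectin genes were lower, 15 against 4 higher of 32 tested (249 listed), and 19 against 3 without neuron replicate 4. Over all tested genes, 16.8% were lower and 23.5% higher. Of the 32, 16 reached the count minimum in neurons alone, and the others had less room to be found higher. clec-78 was an exception with 738, 788, 745 and 500 CPM in neurons, against 30.9, 23.9, 8.32 and 25.5 CPM in whole worms (4.96, SE 0.39), and clec-63 had 2.93, 9.33, 3.53 and 1.11 CPM in neurons, against 84, 72.1, 75 and 65.8 CPM in whole worms (-4.13, SE 0.60).

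Of 23 body wall muscle genes, 6 were higher and 6 lower, where 23.5% and 16.8% of all tested genes were. Of the 22 that passed in whole worms alone, 5 were higher and 6 lower (22.7% and 27.3%), beside 20.7% and 20.6% of all such genes. act-4, an actin gene of muscle and other cells, had 5721, 5458, 4962 and 4651 CPM in neurons, against 918, 627, 845 and 508 CPM in whole worms (log2 fold change 2.84, SE 0.20, edgeR adjusted p = 5.25e-06). The perlecan gene unc-52, which encodes a basement membrane protein, had 548, 497, 657 and 438 CPM in neurons, against 52.8, 46.1, 50.1 and 27.7 CPM in whole worms (3.60, SE 0.25). The ADF/cofilin gene unc-60 was higher by 2.11 (SE 0.20). The calponin-related gene unc-87 had 30.7, 74.3, 44.6 and 41.1 CPM in neurons, against 281, 290, 272 and 148 CPM in whole worms (-2.38, SE 0.33). The troponin I gene unc-27 was lower by 2.09 (SE 0.34), the twitchin gene unc-22 by 1.38 (SE 0.34) and the major myosin gene unc-54 by 0.78 (SE 0.26). The summed level of the list, 7716 to 10195 CPM in neurons and 2625 to 5410 CPM in whole worms, holds act-4 too.

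Germline and yolk genes were lower in neurons. Of 27 oocyte and germline genes, 26 were lower, where 16.8% of all tested genes were, and the exception was mex-3. All 27 passed in whole worms alone, the group where they were high, so this does not guard a count of lower genes. Of the 27, 24 also reached the count minimum in neurons alone. Leaving out 1 library gave 21 to 26 lower. puf-5, an RNA-binding protein gene of late oogenesis, had 78.8, 102, 43.2 and 238 CPM in neurons, against 789, 739, 838 and 1043 CPM in whole worms (log2 fold change -2.88, SE 0.44, edgeR adjusted p = 7.59e-04). The eggshell gene cpg-1 had 127, 94.9, 64.4 and 495 CPM in neurons, against 1375, 1469, 1661 and 2050 CPM in whole worms (-3.07, SE 0.57). perm-4, which acts in the eggshell permeability barrier, had 155, 185, 184 and 248 CPM in neurons, against 779, 883, 896 and 743 CPM in whole worms (-2.10, SE 0.18). The P granule helicase gene glh-2 was lower by 3.15 (SE 0.55). Summed over the list, neuron replicate 4 had 5891 CPM beside 1193, 961 and 930 CPM in replicates 1 to 3, against 13370, 12268, 13263 and 15752 CPM in whole worms. The list median was -2.53 with neuron replicate 4 and -3.90 without it. All 6 vitellogenin genes, which encode yolk proteins made in the intestine, were lower by 1.48 to 2.04 on the log2 scale. Their summed level was 5873, 7276, 6809 and 15035 CPM in neurons, against 40255, 28115, 40659 and 21163 CPM in whole worms, with neuron replicate 4 again the highest neuron library. Per kilobase of exon, vit-6 was the most abundant nuclear protein-coding gene in whole worms and ranked 32 in neurons.

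mex-3, the RNA-binding protein gene targeted by RNA interference in both groups, lies on chromosome I from 127285 to 134270. It had 26.2, 33.9, 47.8 and 69 CPM in neurons, against 13.9, 12.3, 14 and 9.45 CPM in whole worms, with no overlap and a log2 fold change of 1.83 (SE 0.43, edgeR adjusted p = 0.00816). Among the 27 germline genes it was thus the only one on the higher side.

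Of 11 tested intestine markers (15 listed), 4 were lower and none higher, beside 16.8% and 23.5% of all tested genes. Without neuron replicate 4, 6 were lower. Only 7 of the 11 reached the count minimum in neurons alone, and the others had less room to be found higher. The protease gene asp-1 had 29.7, 28, 26.4 and 45.3 CPM in neurons, against 137, 145, 129 and 120 CPM in whole worms (log2 fold change -2.03, SE 0.27), and asp-5 and cpr-6 were lower by 2.79 (SE 0.56) and 1.77 (SE 0.36). The defining intestinal factor elt-2 had 1, 0, 0 and 0 counts in neurons and 8, 15, 16 and 9 counts in whole worms. The summed intestinal level was 138, 154, 176 and 252 CPM in neurons, against 641, 458, 595 and 418 CPM in whole worms. Of 8 tested pharynx markers, the troponin C gene tnc-2 was lower, and myo-2, the pharyngeal myosin gene, was not called because of neuron replicate 3 (0.837, 4.79, 61.7 and 5.55 CPM in neurons, against 105, 125, 115 and 24.3 CPM in whole worms). Without that library myo-2 was lower by 4.61 (edgeR adjusted p = 0.00254, range over all alternatives 0.00254 to 0.261), and 5 pharynx genes were called lower. With a replicate block myo-2 was lower by 3.47 (edgeR adjusted p = 0.0214), and 4 pharynx genes were. Only 4 of the 8 tested pharynx markers reached the count minimum in neurons alone. The coelomocyte gene cup-4 had no count in neurons and 8, 14, 19 and 51 counts in whole worms. Of 3 tested coelomocyte markers 1 was lower, while each of the 8 fits that left out a library called 2 or 3 lower. Glia markers and sperm genes had 2 tested genes each and none was called. Of 6 tested lysozyme genes 3 were lower, of 28 tested transthyretin-related genes 7 were higher and 7 lower, and of 37 tested homeobox genes 10 were higher and 5 lower. The shares over all tested genes were 23.5% higher and 16.8% lower. Among members that passed in whole worms alone, 3 of 23 transthyretin-related genes were higher and 7 lower. For homeobox genes these were 4 and 5 of 22, beside 20.7% and 20.6% of all such genes.

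**Figure D3:**
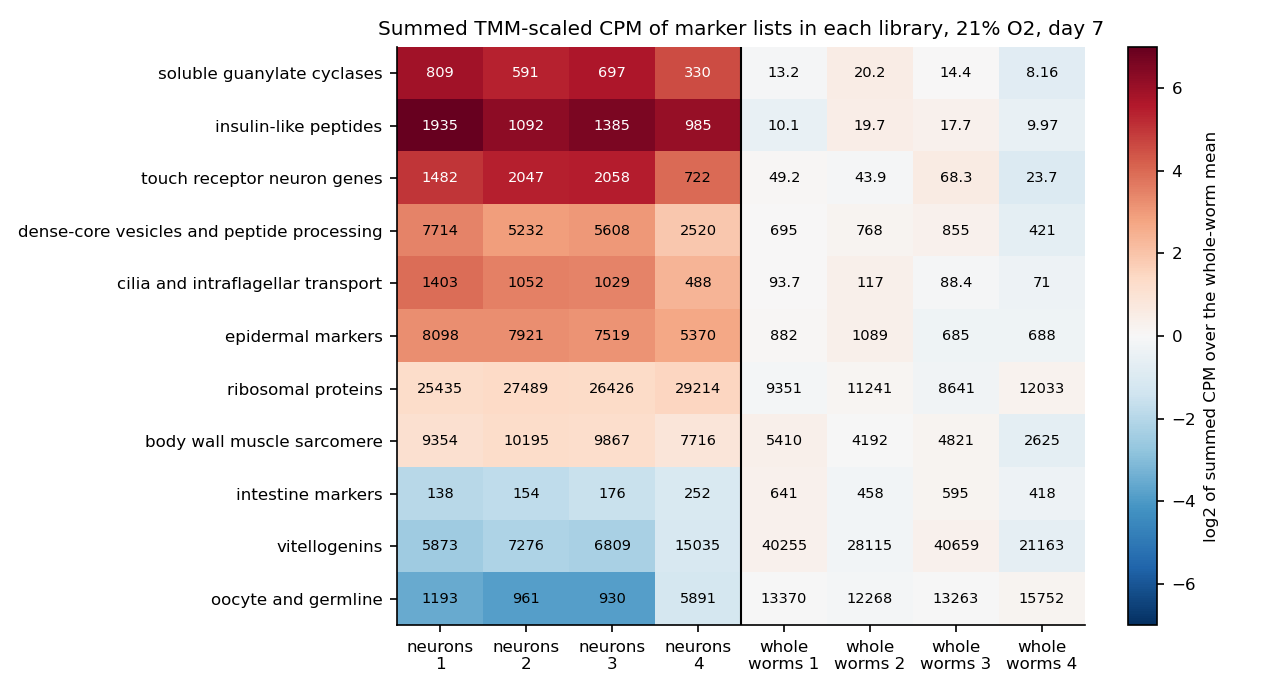
Summed TMM-scaled CPM of 11 marker lists (rows) in each library (columns, neurons left of whole worms), printed in each cell and colored by the log2 of the sum over the whole-worm mean. Neuron replicate 4 had the lowest sum of soluble guanylate cyclases among the neuron libraries, 330 CPM, and the highest for oocyte and germline genes, 5891 CPM.

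Across all genes the smallest p values did not belong to the O2-sensing genes. The 10 called genes with the smallest p on the higher side and no overlap between groups were ins-30, unc-53, Y110A2AL.4, ras-2, the pseudogene F07H5.5, gly-6, H08J11.2, plp-1, R106.5 and tln-1. unc-53, a NAV-type gene that guides growing axons and other cell extensions, had 2767, 2296, 1984 and 1623 CPM in neurons, against 93.3, 106, 74.7 and 69.5 CPM in whole worms (log2 fold change 4.66, SE 0.23, edgeR adjusted p = 1.50e-06). gly-6, an O-glycosyltransferase gene, had 1204, 989, 823 and 952 CPM in neurons, against 42.1, 40, 40 and 22.4 CPM in whole worms (4.78, SE 0.25). The Ras-related gene ras-2 was higher by 5.01 (SE 0.26), the talin gene tln-1, which ties integrins to actin, by 3.45 (SE 0.20), and plp-1, a Pur alpha-like gene, by 2.69 (SE 0.15). On the lower side were C39D10.7, perm-4, F40F4.6, mrp-4, cyp-31A5, pdhk-2, lin-53, klp-15, T06E6.10 and lin-41. C39D10.7 had 214, 166, 128 and 233 CPM in neurons, against 1150, 993, 1310 and 1557 CPM in whole worms (-2.76, SE 0.23, edgeR adjusted p = 1.51e-05). The oocyte regulator lin-41 was lower by 1.96 (SE 0.24), the kinesin gene klp-15, of the oocyte meiotic spindle, by 4.02 (SE 0.48), and the chromatin gene lin-53 by 2.44 (SE 0.29). The pseudogene F07H5.5 reached 4408 CPM in a neuron library, and pseudogene counts can include reads of related genes.

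Calls were not spread evenly over chromosomes. On X, 506 of 1349 tested genes were higher in neurons (37.5%) and 112 lower (8.3%). On the autosomes, 19.6 to 23.6% were higher and 16.1 to 21.3% lower. Among genes that passed in whole worms alone, 36.6% of X genes were higher and 11.3% lower, against 16.2 to 19.5% higher and 18.5 to 24.4% lower on the autosomes. These shares are descriptions of genes, which are not independent replicates, and were not tested. Among the genes above, gcy-36, flp-8, flp-20, mec-7, elt-3 and act-4 lie on X.

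**Figure D4:**
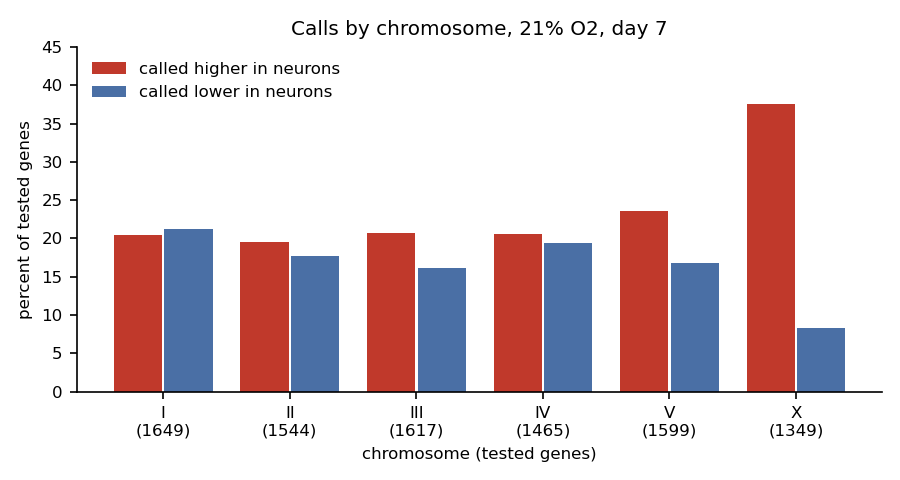
Percent of tested genes called higher (red) and lower (blue) in neurons than in whole worms for each nuclear chromosome (number of tested genes in parentheses). On X 37.5% were higher and 8.3% lower.

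The neuron over whole-worm difference at 21% O2 depended on age. A sample type by age interaction, fitted to the 16 libraries of days 7 and 1 at 21% O2, called 2755 of 11852 genes, with the difference more positive on day 7 in 1487 (12.5%) and more negative in 1268 (10.7%). Genes of O2-sensing neurons and of vesicles went one way. Each of the 5 cyclases tested on both days had a smaller difference on day 7, and for gcy-37 the log2 fold change was 5.61 on day 7 and 8.92 on day 1 (interaction -3.03, SE 0.58, edgeR adjusted p = 0.00159). For flp-8 it was 4.79 on day 7 and 9.51 on day 1 (interaction -4.43, SE 0.73). Of all 16 synaptic release genes 15 were called more negative, among them unc-57, at 0.11 on day 7 and 2.28 on day 1. Of 13 dense-core vesicle genes 9 were, with egl-3 at 3.18 on day 7 and 6.37 on day 1 (interaction -2.91, SE 0.47). The 4 most significant genes in this direction were nlp-11, ten-1, pkc-1 and T04C9.1. nlp-11 was at 1.43 on day 7, with 27.9, 14.5, 15.5 and 23.9 CPM in neurons against 6.02, 9.74, 9.26 and 5.31 CPM in whole worms, and at 7.09 on day 1 (interaction -5.43, SE 0.49, edgeR adjusted p = 1.64e-06). ten-1, the teneurin gene, was at -0.16 on day 7 and 3.54 on day 1, and the protein kinase C gene pkc-1 at 0.38 and 3.53.

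Of 16 tested insulin-like peptide genes, 1 was called more negative and 1 more positive, with a median interaction of -1.71, beside -2.12 for the synaptic release genes and -2.28 for the touch receptor genes. These lists were not compared by a test. ins-30 had log2 fold changes of 7.64 on day 7 and 7.61 on day 1 (interaction 0.29, SE 0.72), and ins-5 of 8.41 and 8.82 (interaction -0.14, SE 0.77), while daf-28 was at 6.81 and 8.19 (interaction -1.12, SE 0.72, edgeR adjusted p = 0.32). An interaction that misses the threshold does not show that the 2 differences were equal, and for ins-5 an interval of 2 SE spans more than 1 log2 unit on either side. Touch receptor genes were called more negative on day 7 in 7 of 12 and more positive in none, and ASI markers were more negative in 2 of 4. daf-7 was at 5.27 on day 7 and 7.93 on day 1 (interaction -2.41, SE 0.72, edgeR adjusted p = 0.0271). Among touch genes, mec-10 was at 5.37 and 9.56 (interaction -3.91, SE 0.68), while mec-3 was at 7.51 and 8.31 (interaction -0.47, SE 1.16).

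Epidermal and ribosomal genes went the other way. Of 22 epidermal markers tested, 18 had a more positive difference on day 7 and none a more negative one. Over the 18 markers with a fit at both ages, the median log2 fold change was 3.49 on day 7 and -2.30 on day 1. noah-1 was at 3.58 on day 7 and -2.70 on day 1 (interaction 6.55, SE 0.94, edgeR adjusted p = 1.34e-04), and elt-3 at 4.85 and -0.59 (interaction 5.69, SE 0.62). Of 79 ribosomal protein genes 72 were more positive, with medians of 1.41 on day 7 and -0.32 on day 1. All 6 vitellogenin genes were more positive too, at a median of -1.86 on day 7 and -3.53 on day 1, and none of the 27 oocyte and germline genes was called. The 4 most significant genes in this direction were gly-6, the filamin gene fln-2, unc-52 and the calumenin gene calu-1. unc-52 was at 3.60 on day 7 and -1.82 on day 1 (interaction 5.67, SE 0.43, edgeR adjusted p = 2.76e-07), and fln-2 at 3.91 and -0.80 (interaction 4.98, SE 0.37). Each difference is a ratio of neurons to whole worms, so it moves with either sample, and the ages also differed in the bacteria eaten at collection.

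**Figure D5:**
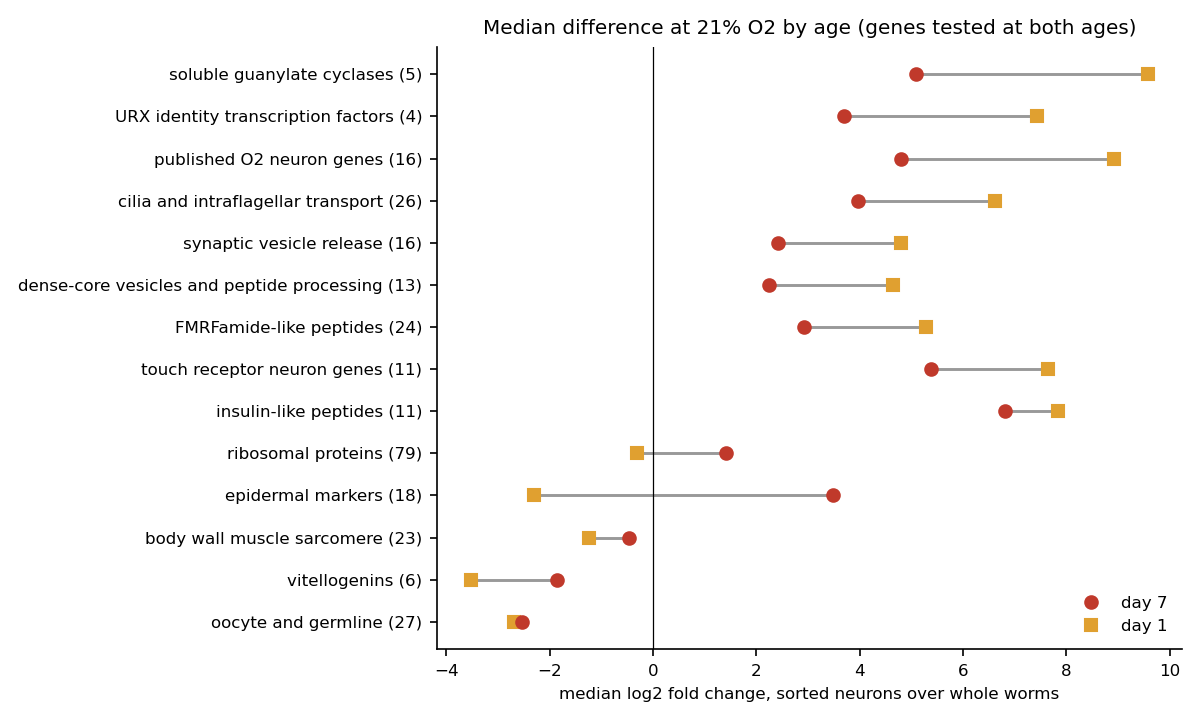
Median log2 fold change of sorted neurons over whole worms at 21% O2 on day 7 (circles) and day 1 (squares) for 14 lists (rows), over genes tested at both ages (number in parentheses). The median of the soluble guanylate cyclases was 5.08 on day 7 and 9.58 on day 1, and that of the epidermal markers 3.49 and -2.30.

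Between O2 levels on day 7 few differences could be called. The sample type by O2 interaction, fitted to the 16 day 7 libraries, called 2 of 11082 genes (0.018%), C53B7.3 and cyp-31A5, and 787 had an unadjusted p under 0.05. DESeq2 called 68. C53B7.3 had a log2 fold change of -1.18 at 21% O2 and -7.82 at 7% O2, and the cytochrome P450 gene cyp-31A5 of -8.91 and -1.61, with 0, 0, 0 and 0.111 CPM in neurons and 23.9, 13.3, 17.9 and 28.6 CPM in whole worms at 21% O2. Leaving out 1 library gave 0 to 4 genes, and 0 in most such fits. For the lists, the medians at 21% and 7% O2 were 5.08 and 4.28 for the tested soluble guanylate cyclases, 2.42 and 1.88 for synaptic release genes, 6.59 and 5.29 for insulin-like peptides, 3.49 and 3.53 for epidermal markers and 1.41 and 1.62 for ribosomal protein genes. Each median was taken over the genes tested at that O2 level, 12 and 11 of them for insulin-like peptides. None of these lists had a member called in the interaction.

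Among the genes that the study examined by knockdown, a list of 11 was described. All 11 could be tested, and 7 were higher in neurons, 6 of them with no overlap between groups. Over all tested genes, 23.5% were called higher, and in 20.1% all 4 neuron values lay above all 4 whole-worm values. skn-1, cmd-1, nlp-11 and unc-86 are given above, as are ncx-5 and unc-68, which were also knocked down but are not in the list. Of others outside the list, the calcineurin gene tax-6 was higher by 1.99 (SE 0.35) and crtc-1, a CREB coactivator gene, by 2.39 (SE 0.51), and the FOXO gene daf-16 was at -0.01 (SE 0.25). cebp-1, a C/EBP-type factor gene, had 235, 141, 101 and 71.7 CPM in neurons, against 35.8, 29.9, 25.6 and 13.7 CPM in whole worms (log2 fold change 2.39, SE 0.43, edgeR adjusted p = 0.00196). The phosphatase gene ptp-4 and the nuclear receptor gene nhr-14 were higher by 1.98 (SE 0.58) and 2.06 (SE 0.55). The call of nlp-11 (edgeR adjusted p = 0.0555) was lost in 4 of the 8 fits that left out a library and with a replicate block (edgeR adjusted p = 0.122). kdin-1, the Kidins220 scaffold gene, had 27.5, 44.8, 25.1 and 129 CPM in neurons, against 76.7, 92.2, 84.9 and 65 CPM in whole worms. Neuron replicate 4 was the only neuron library above the whole worms, and kdin-1 was not called (-0.49, SE 0.49, edgeR adjusted p = 0.476). Without that library it was called lower, at -1.34 (edgeR adjusted p = 0.00564, range over all alternatives 0.00564 to 0.737). cfp-1, nra-1 and sol-1 were not called, at -0.32 (SE 0.26), 0.27 (SE 0.26) and 2.12 (SE 1.34).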

How the data were processed

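RNA-seq counts per gene were deposited for 32 libraries, 4 in each of 8 groups, and the 8 libraries of day 7 adults at 21% O2 are described here. According to the study's methods, the authors trimmed reads with cutadapt 1.9, aligned them to WBcel235 with STAR 2.5.2b and removed ribosomal RNA genes. Fragments over exons were then counted per gene with featureCounts 1.5.1, without strand, so reads of overlapping genes cannot be told apart. The deposited counts were used as they are. Genes were filtered with filterByExpr (minimum count 10) and tested with TMM scaling and edgeR 4.0.16's quasi-likelihood test (R 4.3.3, limma 3.58.1) on the 8 libraries, with Benjamini-Hochberg adjustment over all tested genes. Calls required an adjusted p below 0.1 together with a change of 1.5 times or more. Interactions with age and O2 were fitted to 16 libraries each. Whether the replicates came from separate cultures is stated only by the study's methods, as biological replicates.

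Members and the 39 gene lists were chosen with earlier results of these data known. Genes were named if their list had at most 16 members, if they were among the 4 called members with the smallest p in each direction of a longer list, or among the 10 genes with the smallest p in each direction whose groups did not overlap. mex-3 and the 4 leading genes of each interaction in each direction were added, and not every gene so chosen is printed. Alternatives were DESeq2 1.42.0, RLE and upper-quartile scaling, no low-count filter or at least 1 CPM in every library of a group, joint fits of 16 or 32 libraries, a replicate block, removal of genes overlapping ribosomal RNA, a stricter p threshold of 0.05, dropping the limit on fold change, and leaving out each library.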

Additional observations from a re-analysis of the deposited data

Results flagged for a closer look

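In 450 groups of 4 values, 36 had a library farther from its companions than Dixon's limit for 4 values allows, where chance gives about 1 in 20. The groups are not independent, since list sums contain some of the single genes, such as vit-6 and cpg-1. Of these, 14 were among neuron libraries, 11 of them neuron replicate 4, and 22 among whole-worm libraries. The values below are CPM.

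Neuron replicate 4 was the highest neuron library for the summed oocyte and germline genes (5891) and the summed vitellogenins (15035), and for vit-6 (7943) and cpg-1 (495). It was the lowest for the summed potassium channels (326) and ligand-gated channels (130), and for tax-2 (2.22), unc-18 (152) and sqt-3 (248). It was the one neuron library with counts of kqt-2 (0.222) and cyp-31A5 (0.111). These were 2 counts and 1 count beside 0 in the other neuron libraries, so any count at all would have been flagged. Neuron replicate 1 stood apart for dpy-10 (325), and neuron replicate 3 for mec-14 (23.1) and myo-2 (61.7).

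Whole-worm replicate 4 was the lowest whole-worm library for the summed synaptic genes (462), Ca2+ and Na+ handling genes (2360) and HIF-1 pathway genes (205), and for unc-18 (26.2), pgal-1 (26.8), nlp-15 (5.57), mec-17 (2.72), unc-87 (148) and gly-6 (22.4). It also stood apart for F07H5.5 (184), pkc-1 (158) and ceh-20 (16.8). Whole-worm replicate 3 stood apart for the summed lysozymes (1066), gcy-32 (3.14), ncx-5 (3.77) and glh-2 (118). Whole-worm replicate 2 stood apart for ahr-1 (5.69), ins-9 (0.127), mec-14 (4.43), osm-5 (3.8), tbh-1 (160) and col-76 (6.07). The value of ins-9 was 1 count beside 0 in the other whole-worm libraries.

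The neuron over whole-worm difference at 21% O2 differed between day 7 and day 1 in 2755 genes by the interaction test. The leading genes had log2 interactions of 6.30 for gly-6, 5.67 for unc-52, 4.98 for fln-2 and 4.89 for calu-1, and of -5.43 for nlp-11, -3.48 for ten-1, -2.90 for T04C9.1 and -2.89 for pkc-1. Between 21% and 7% O2 on day 7 it differed in 2 genes, by 6.59 for C53B7.3 and -7.40 for cyp-31A5.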

How the results depend on the processing

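The count of called genes was 3739 and ranged from 2905 to 4833 under the alternatives other than leaving out a library, and from 2988 to 4866 with 1 library left out. The count of lower genes was 1133 to 2383 with 1 library left out, the highest without neuron replicate 4. With a replicate block 3919 genes were called, 1965 higher and 1954 lower. Same-numbered neuron and whole-worm libraries had deviations from their group means that correlated by 0.018, 0.062, 0.061 and 0.231. The labels do not say that a number marks a shared suspension. The age interaction called 2755 genes, 2463 to 3525 under its other alternatives and 2367 to 3264 with 1 library left out. The O2 interaction called 2 genes, 68 with DESeq2, 5 in a fit of all 32 libraries, 0 with the replicate block, and 0 to 4 with 1 library left out, with 4 when neuron replicate 4 at 21% O2 was left out. With 1 library left out, the log2 fold change of col-19 was -0.13 to 1.70 and that of ins-17 -0.37 to 0.34, so the sign of both turned, and neither was called. Of 185 named genes, 167 were called, none of these changed sign, and 154 kept the call under every alternative. ptp-4 and tdc-1 lost it only without a low-count filter (adjusted p = 0.116 and 0.176). The causes were not tested. A median for sperm genes could not be had at a minimum of 1 CPM. The depth of 6310558 to 10102026 counts leaves genes such as gcy-31 and glb-5 with too few counts to test.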
